A study of Mus musculus with 6 samples.

Results

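The 48 genes described here encode the degradative compartment of the cell: 7 lysosomal membrane proteins and channels, 10 cathepsins and other proteases, 8 glycosidases, 7 lipid hydrolases, lipid carriers and cofactors, 2 transcription factors, and 14 subunits and accessory proteins of the V-ATPase. They were chosen by symbol from a table of 55401 listed genes. All 48 were found once in the table, and all 48 were among the 15272 genes with enough counts to be tested; the lowest count of any of them in a library was 161. Wild-type mouse cells labelled BMDM, bone marrow-derived macrophages, were compared by RNA-seq after treatment with neutrophil extracellular traps (NETs, webs of chromatin and granule proteins shed by neutrophils), in 3 libraries, and without NETs, in 3 control libraries. The sample titles carry BV2, the name of a mouse microglial cell line, and the sources used here state no origin, dose or duration of the NETs. Nothing states whether the 3 libraries of a group were separate cultures or animals, so p-values measure only the spread between these libraries, which may be technical.

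Lysosomes are acidic organelles in which hydrolases break down material that macrophages engulf or recycle. The V-ATPase acidifies them: its cytosolic V1 sector burns ATP, and the rotation this drives moves protons through the membrane-embedded V0 sector. Most hydrolases work best at this acid pH, and many are delivered from the Golgi by mannose 6-phosphate receptors. TFEB, TFE3 and MITF are related transcription factors that bind E-box sequences of the CLEAR type in the promoters of many lysosomal genes.

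Lysosomal transcripts were mostly lower in NETs-treated than in control cells. Of the 48 genes 32 (66.7%) were called lower and 5 (10.4%) higher in the quasi-likelihood test of edgeR (n = 3 per group), at an adjusted p under 0.05 after Benjamini-Hochberg correction over all tested genes, beside 27.2% of all tested genes called lower and 25.5% called higher. Called in either direction were 77.1% of the 48 genes and 52.7% of all tested genes. Among called genes the lower ones made up 86.5% of the lysosomal genes and 51.6% of all genes. Lysosomal genes are abundant and precisely measured here: the median SE of their log2 fold change was 0.071, against 0.143 over all tested genes, so the test could call smaller differences among them. The 5 higher genes were Lamp2, Lamp1, Tfe3, Atp6v0e and Atp6v1e1. Their number was 3 with scaling by library size only, without NETs-treated replicate 2, or without any 1 of the control replicates, since Lamp1 and Tfe3 then lost their call.

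The decreases were moderate. The median log2 fold change of the 48 genes was -0.41, against -0.02 over all tested genes, and decreases among called genes ran from 1.16-fold to 5.48-fold. A decrease of at least 2-fold was called for 7 lysosomal genes (14.6%; 11.9% of all tested genes): Atp6v0d2, Atp6v0a1, Naglu, Lgmn, Tfeb, Lipa and Atp6v1b2. In 35 of the 48 genes (72.9%) all 3 NETs-treated libraries lay below all 3 control libraries, as they did for 32.5% of tested genes; in 5 (10.4%) they lay entirely above, as for 29.9% of tested genes. The RNA came from bulk samples, in which fewer cells of a type and less RNA per cell cannot be told apart.

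**Figure D1:**
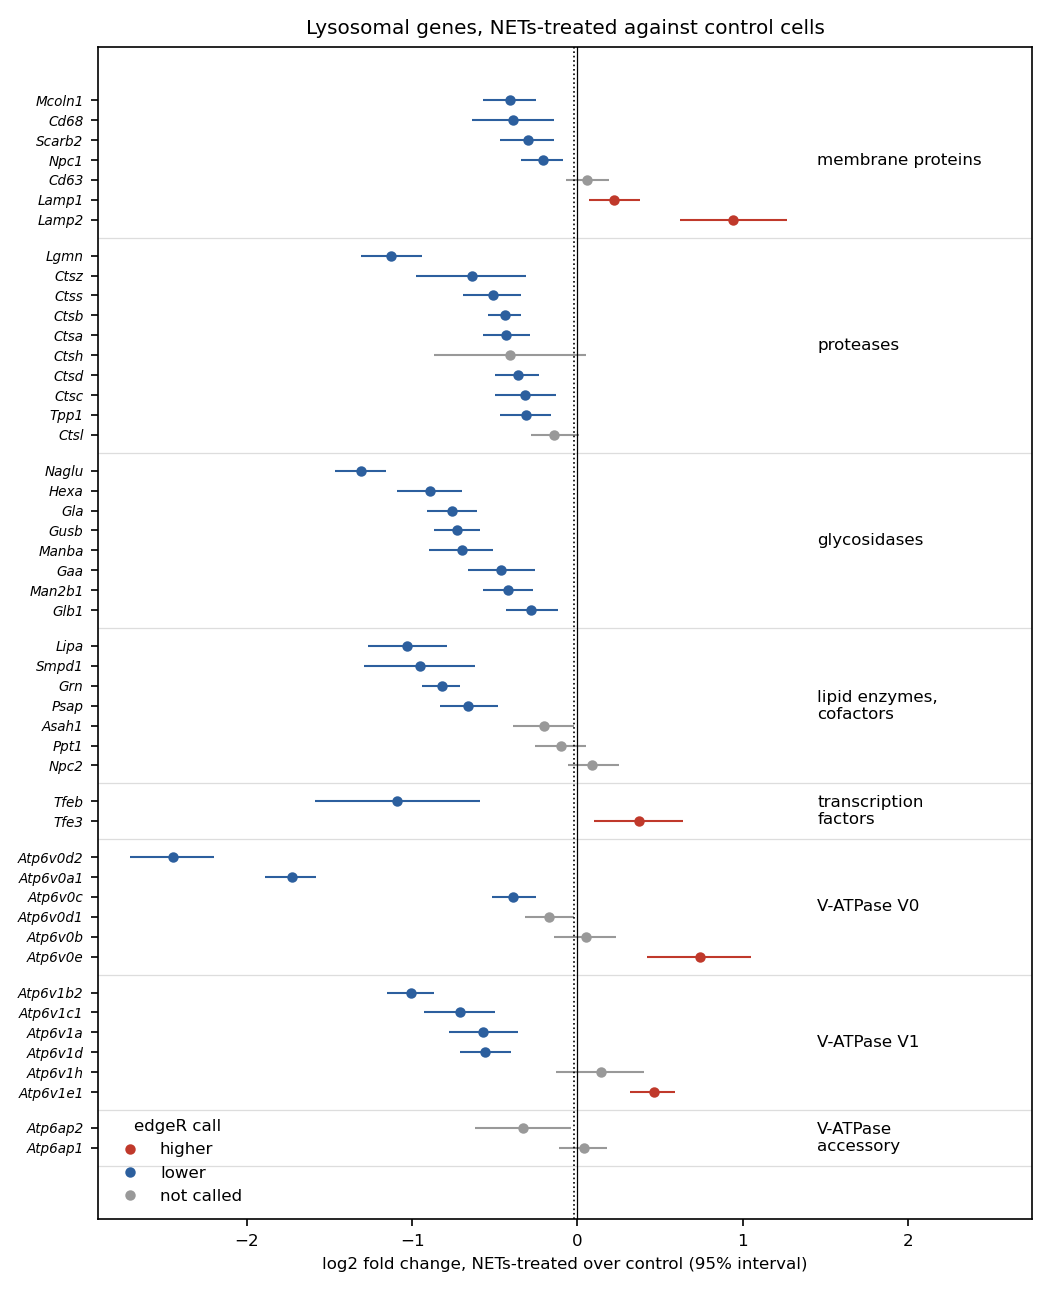
Log2 fold change of each of the 48 lysosomal genes (x axis, NETs-treated over control, points with 95% intervals), grouped by role and coloured by the edgeR call; the dotted line is the median of all tested genes at -0.02. The 8 glycosidase genes all lie left of 0, Atp6v0d2 and Atp6v0a1 lie farthest left, and Lamp2 and Atp6v0e lie farthest right.

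**Figure D2:**
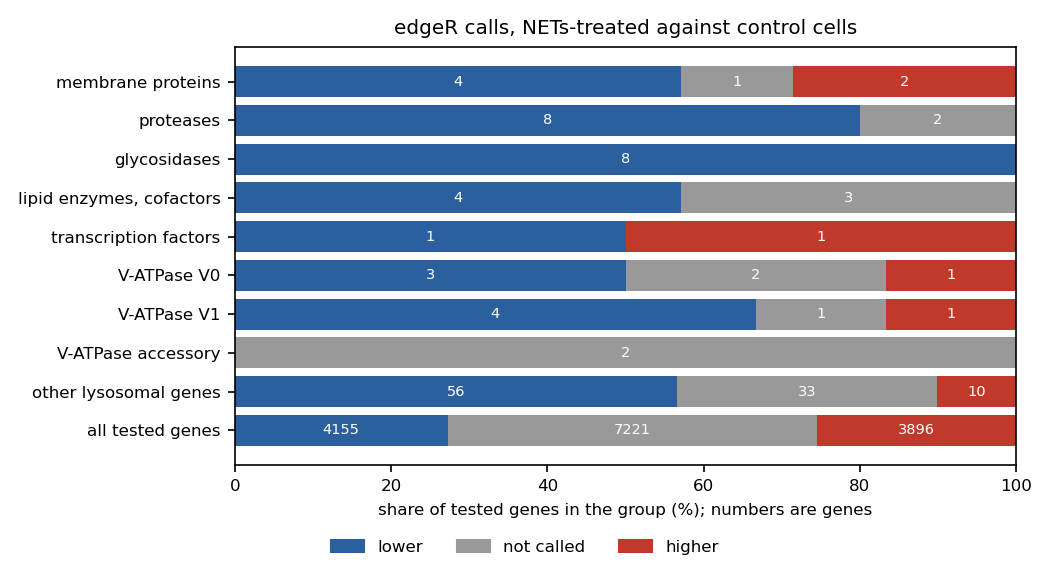
Share of tested genes called lower, not called or called higher in edgeR (x axis, %, with gene numbers on the bars) for each lysosomal group, for 99 other lysosomal genes and for all 15272 tested genes. All 8 glycosidases were lower, while higher calls stand among membrane proteins, transcription factors and the V0 and V1 sectors.

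Among the transcription factors, Tfeb transcripts were 10.1, 5.99 and 6.28 CPM in NETs-treated cells, against 18.2, 15.7 and 13.9 CPM in control cells (CPM, counts scaled to library size with TMM factors). The groups did not overlap, although NETs-treated replicate 1 lay well above the other NETs-treated libraries, and the log2 fold change was -1.09 ± 0.22 (SE, adjusted p = 0.00311). Tfe3, its close relative, was at 43.9, 39.3 and 32.0 CPM in NETs-treated cells, against 30.7, 30.0 and 28.4 CPM in control cells. All NETs-treated values of Tfe3 lay above the control values, the nearest by little, and its log2 fold change of 0.37 ± 0.12 (SE, adjusted p = 0.0292) lost its call with scaling by library size only, without a filter on low counts, and without NETs-treated replicate 2 or any 1 control replicate. Mitf, the third relative, was lower at 31.2 ± 2.27 CPM in NETs-treated cells and 55.1 ± 5.34 CPM in control cells (SD, n = 3 each), with a log2 fold change of -0.82 ± 0.10 (SE, adjusted p = 1.81e-04). Tfec, the fourth, had at most 0.353 CPM in any library and was not tested.

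The promoters of lysosomal genes hold the sites through which these factors are known to act, so they were searched for the E-box CACGTG and for TCACGTGA, the core of the CLEAR element, which contains that E-box; both read the same on either strand. RefSeq promoters of GRCm38.p6, from 250 bases before to 50 after each start, were given for 40 of the 48 genes. None was given for Npc1, Ctsb, Ctsh, Asah1, Atp6v0d2, Atp6v1b2, Atp6v1c1 and Atp6v1h, which the shares and medians below leave out. TCACGTGA stood in 7 of these 40 (17.5%), against 1.12% of all 27025 genes with a promoter, and CACGTG in 14 (35.0%), against 8.09%. The element is known from promoters of many lysosomal genes, so its larger share here is background and no finding of these data. The stretches around TCACGTGA are shown because they carry the element shared by these 7 genes; capitals mark it, and each reads 5′ to 3′ on the strand of its gene.
Ctsd, chr7:142387893-142387952, minus strand: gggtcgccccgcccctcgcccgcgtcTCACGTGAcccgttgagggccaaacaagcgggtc
Ctsa, chr2:164833734-164833793, plus strand: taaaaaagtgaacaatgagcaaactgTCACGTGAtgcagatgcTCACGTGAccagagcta
Gla, chrX:134601193-134601255, minus strand: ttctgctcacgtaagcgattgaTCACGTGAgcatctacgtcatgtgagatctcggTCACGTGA
Mcoln1, chr8:3500447-3500506, plus strand: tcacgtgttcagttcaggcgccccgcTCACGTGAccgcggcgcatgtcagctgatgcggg
Atp6v1a, chr16:44139358-44139417, minus strand: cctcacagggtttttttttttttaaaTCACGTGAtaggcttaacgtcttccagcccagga
Atp6v0d1, chr8:105566035-105566094, minus strand: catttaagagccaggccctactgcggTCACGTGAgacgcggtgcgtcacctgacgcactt
Atp6v0e, chr17:26676372-26676425, plus strand: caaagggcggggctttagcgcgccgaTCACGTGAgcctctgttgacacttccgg
In Ctsa and Gla the element occurred 2 times. The first copy began 228 bases before the start in Gla, 132 in Atp6v1a, 99 in Ctsd, 46 in Mcoln1, 13 in Ctsa and 4 in Atp6v0d1, and at base 3 after the start in Atp6v0e.

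The genes that carry this element did not all move alike. Ctsd, Ctsa, Gla, Mcoln1 and Atp6v1a were lower, with log2 fold changes of -0.36, -0.43, -0.76, -0.41 and -0.57. Atp6v0d1, at -0.17, did not pass the test, and Atp6v0e was higher, at 0.74. Of the 33 genes without TCACGTGA in the given promoter, 22 were lower, 4 higher and 7 not called, with a median log2 fold change of -0.39, against -0.41 for the 7 genes with it. For CACGTG the 14 genes with it had a median of -0.38 and the 26 without it of -0.40. A match of letters is a description of the promoter and not a measured site of binding.

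Membrane proteins moved in both directions, with 4 of 7 lower, 2 higher and 1 not called, and a median log2 fold change of -0.21. Lamp2, one of the major glycoproteins of the lysosomal membrane and a receptor for chaperone-mediated autophagy (ENSMUSG00000016534.15, chromosome X, 38401357 to 38456454, GRCm38), had 1114, 1401 and 1749 CPM in NETs-treated cells, against 691, 764 and 763 CPM in control cells. All 3 NETs-treated libraries lay above control, but they spread widely, and the log2 fold change was 0.94 ± 0.14 (SE, adjusted p = 6.70e-04). Its paralog Lamp1 was at 1377, 1547 and 1602 CPM in NETs-treated cells, against 1261, 1300.2 and 1311 CPM in control cells, a small rise with a log2 fold change of 0.22 ± 0.07 (SE, adjusted p = 0.0191) that lost its call under the settings named above. Per length, Lamp1 was the more abundant of the pair, at a mean RPKM (CPM divided by exon length in kilobases) of 564 in NETs-treated cells and 482 in control cells, against 149 in NETs-treated cells and 77.4 in control cells for Lamp2. The size of this gap depends on the annotated exons, which together span 9552 bases in Lamp2 and 2675 in Lamp1. In mean CPM the pair was closer in NETs-treated cells, at 1508 for Lamp1 and 1421 for Lamp2.

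The other membrane genes did not share that rise. Mcoln1, the calcium channel TRPML1, fell to 54.4, 53.0 and 56.0 CPM in NETs-treated cells, against 71.0, 71.0 and 75.0 CPM in control cells, a log2 fold change of -0.41 ± 0.07 (SE, adjusted p = 0.00117). Cd68, a heavily glycosylated membrane protein of macrophage lysosomes, was at 709, 642 and 509 CPM in NETs-treated cells, against 787, 828 and 820.4 CPM in control cells. Its NETs-treated libraries spread more than the control ones while the groups stayed apart, and its log2 fold change of -0.39 ± 0.11 (SE, adjusted p = 0.0163) lost its call without control replicate 2 or 3 and was -0.26 without NETs-treated replicate 3. Scarb2, the LIMP-2 receptor that carries glucocerebrosidase to lysosomes, had 59.0, 58.5 and 62.1 CPM in NETs-treated cells, against 78.4, 72.0 and 71.1 CPM in control cells. The log2 fold change of Scarb2 was -0.30 ± 0.07 (SE, adjusted p = 0.00797), with the call lost without NETs-treated replicate 2. Npc1, which exports cholesterol from the lysosome, fell by a similar amount, with a log2 fold change of -0.21 ± 0.06, a call lost without NETs-treated replicate 2 or control replicate 2. Cd63, a tetraspanin of late endosomes, overlapped between groups at 291 ± 7.43 CPM in NETs-treated cells and 279 ± 5.26 CPM in control cells (SD, n = 3 each); the 95% interval of its log2 fold change was -0.07 to 0.19.

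**Figure D3:**
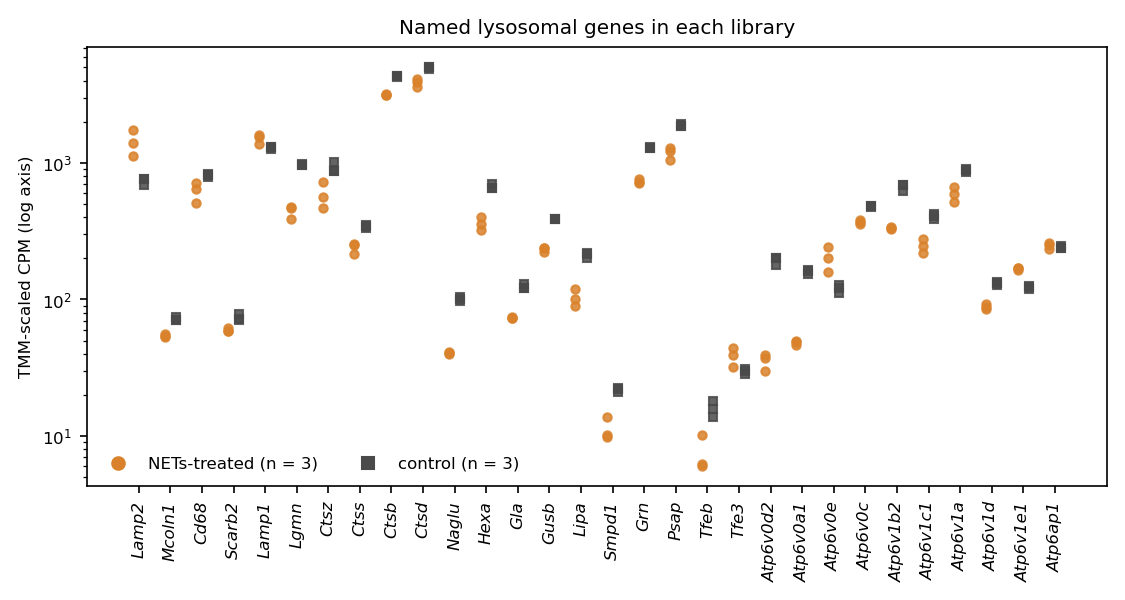
TMM-scaled CPM (y axis, log scale) of 30 lysosomal genes whose library values are given in the text (x axis; Atp6v0d1 is not drawn), with 3 NETs-treated libraries as circles on the left and 3 control libraries as squares on the right of each position. The groups stand apart for all but Atp6ap1, and the NETs-treated circles spread most for Lamp2, Ctsz, Tfeb and Atp6v0e.

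Proteases fell or did not pass, with 8 of 10 lower, 0 higher and a median log2 fold change of -0.42. Lgmn, legumain, which cuts after asparagine and processes several cathepsins (ENSMUSG00000021190.14, chromosome 12, 102394084 to 102439813), changed most. It had 476, 468 and 389.7 CPM in NETs-treated cells, against 964, 967 and 978 CPM in control cells. The control values were nearly identical and lay far above the NETs-treated ones, a log2 fold change of -1.13 ± 0.08 (SE, adjusted p = 1.13e-05). Ctsd, the aspartic protease cathepsin D and per length the most abundant of the 48 genes at a mean RPKM of 1649 in NETs-treated cells and 2119 in control cells, had 4137, 3908 and 3583 CPM in NETs-treated cells, against 5041, 5000.2 and 4905 CPM in control cells. Its decrease was small and clear of the spread, with a log2 fold change of -0.36 ± 0.06 (SE, adjusted p = 9.66e-04). Ctsb, a cysteine protease, was at 3139, 3142 and 3222 CPM in NETs-treated cells, against 4317, 4283 and 4294 CPM in control cells, and its NETs-treated values agreed closely with each other, a log2 fold change of -0.44 ± 0.04 (SE, adjusted p = 5.27e-05).

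Ctss, the cathepsin that trims invariant chain during antigen presentation, had 256, 248 and 215 CPM in NETs-treated cells, against 332, 345 and 351 CPM in control cells. Its groups stood clear of each other, with a log2 fold change of -0.51 ± 0.08 (SE, adjusted p = 6.73e-04). Ctsz, a carboxypeptidase, was at 730.3, 566 and 466 CPM in NETs-treated cells, against 1013, 869 and 871 CPM in control cells. Ctsz was the most variable protease among the called ones, with a log2 fold change of -0.64 ± 0.15 (SE, adjusted p = 0.00633). Ctsa, which also stabilises lysosomal galactosidase and neuraminidase, Ctsc, which activates serine proteases of granules, and Tpp1, a tripeptidyl peptidase, fell with log2 fold changes of -0.43 ± 0.06, -0.32 ± 0.08 and -0.31 ± 0.07. Ctsl and the scarce Ctsh did not pass, with 95% intervals of -0.28 to 0.01 and -0.87 to 0.05; Ctsl passed as lower with library-size scaling, without NETs-treated replicate 3 and with GC correction.

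All 8 glycosidase genes fell, at a median log2 fold change of -0.72, with NETs-treated libraries below control libraries in each. Naglu, which removes N-acetylglucosamine from heparan sulfate (ENSMUSG00000001751.9, chromosome 11, 101070012 to 101077672), had 41.0, 40.6 and 39.6 CPM in NETs-treated cells, against 104, 100.1 and 96.9 CPM in control cells. Neither group spread by more than a few CPM, and the decrease was 2.48-fold, a log2 fold change of -1.31 ± 0.07 (SE, adjusted p = 2.03e-06). Hexa, the alpha chain of beta-hexosaminidase, which breaks down GM2 ganglioside, was at 403, 359 and 322 CPM in NETs-treated cells, against 697, 659 and 657 CPM in control cells, with a log2 fold change of -0.89 ± 0.09 (SE, adjusted p = 5.16e-05). Gla, the galactosidase of globotriaosylceramide, had 73.8, 73.1 and 72.9 CPM in NETs-treated cells, against 130.4, 121 and 121 CPM in control cells. Its 3 NETs-treated values agreed within 1 CPM, and the log2 fold change was -0.76 ± 0.07 (SE, adjusted p = 3.31e-05). Gusb, beta-glucuronidase, was at 221, 240.0 and 238 CPM in NETs-treated cells, against 385, 386 and 386 CPM in control cells, a log2 fold change of -0.73 ± 0.06 (SE, adjusted p = 2.32e-05). Both groups of Gusb were tight. Manba, a beta-mannosidase, Gaa, which degrades glycogen, Man2b1, an alpha-mannosidase, and Glb1, beta-galactosidase, had log2 fold changes of -0.70 ± 0.09, -0.46 ± 0.09, -0.42 ± 0.07 and -0.28 ± 0.07.

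Of the 7 genes for lipid breakdown and cofactors 4 fell, 0 rose and 3 did not pass. Lipa, the acid lipase that splits cholesteryl esters and triglycerides (ENSMUSG00000024781.16, chromosome 19, 34492318 to 34527474), was at 89.9, 100.3 and 120.0 CPM in NETs-treated cells, against 201, 218 and 216 CPM in control cells. No NETs-treated library came near the control values, a log2 fold change of -1.03 ± 0.11 (SE, adjusted p = 7.62e-05). Smpd1, acid sphingomyelinase, had 13.8, 10.2 and 9.83 CPM in NETs-treated cells, against 22.5, 20.9 and 22.0 CPM in control cells, with a log2 fold change of -0.95 ± 0.15 (SE, adjusted p = 7.46e-04). It was the least abundant member of this group. Grn, progranulin, a secreted and lysosomal glycoprotein, was at 718, 724 and 758 CPM in NETs-treated cells, against 1310.1, 1292 and 1294 CPM in control cells. Its log2 fold change of -0.82 ± 0.05 (SE, adjusted p = 4.88e-06) came with little spread in either group. Psap, the precursor of the saposins that present sphingolipids to their hydrolases, had 1285, 1232 and 1053 CPM in NETs-treated cells, against 1912, 1871 and 1851 CPM in control cells, a log2 fold change of -0.66 ± 0.08 (SE, adjusted p = 1.50e-04).

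The genes of this group that did not pass differ in role. Npc2, the soluble carrier that hands cholesterol to NPC1, overlapped between groups at 770.1 ± 61.1 CPM in NETs-treated cells and 722 ± 15.8 CPM in control cells (SD, n = 3 each), and the 95% interval of its log2 fold change was -0.06 to 0.25; it passed as higher without NETs-treated replicate 3 and with GC correction. Asah1, acid ceramidase, and Ppt1, which removes palmitate from proteins, had intervals of -0.39 to -0.02 and -0.26 to 0.05. Asah1 passed with scaling by library size only, with the replicate block, without NETs-treated replicate 3 and with correction for GC content, a setting chosen after seeing the data, under which Ppt1 also passed as lower.

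In the V-ATPase 7 of 14 genes fell, 2 rose and 5 did not pass, and the largest decreases of all 48 genes were in its V0 sector. Atp6v0d2, an isoform of the d subunit that couples the rotor to V0 and is abundant in osteoclasts (ENSMUSG00000028238.6, chromosome 4, 19876841 to 19922605), had 29.9, 37.0 and 39.3 CPM in NETs-treated cells, against 179.8, 199.7 and 202 CPM in control cells. The groups were far apart, and the decrease was 5.48-fold, a log2 fold change of -2.45 ± 0.11 (SE, adjusted p = 1.10e-06). Its paralog Atp6v0d1, the d isoform found in most cells, was at 218, 237 and 243 CPM in NETs-treated cells, against 254, 267 and 264 CPM in control cells. The Atp6v0d1 groups did not overlap, yet the log2 fold change of -0.17 ± 0.07 (SE, adjusted p = 0.056) did not pass, with a 95% interval of -0.32 to -0.02; it passed with upper-quartile or library-size scaling, limma-voom, the replicate block and without NETs-treated replicate 3. Of the summed level of both d genes per length, Atp6v0d2 made up 9.10% ± 0.70 in NETs-treated cells and 32.8% ± 0.88 in control cells (SD, n = 3 each). Of 8 osteoclast markers 6 were tested, 4 fell and 0 rose, beside 27.2% of all tested genes called lower and 25.5% higher. Oscar and Itgb3 were not called and overlapped between groups. The list summed to 170 to 193 CPM in NETs-treated and 451 to 468 CPM in control libraries, most of it the protease gene Ctsk. Calcr was at 0 in all libraries and Acp5 at most at 0.232 CPM. The part of these markers in the Atp6v0d2 result was not tested.

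The a subunit, which holds the proton half-channels, is encoded by several genes, whose mix differed between the groups. Atp6v0a1 (ENSMUSG00000019302.16, chromosome 11, 101009452 to 101063719) had 49.5, 46.5 and 48.5 CPM in NETs-treated cells, against 154, 164 and 162 CPM in control cells. The groups were far apart and each was tight, a 3.32-fold decrease with a log2 fold change of -1.73 ± 0.07 (SE, adjusted p = 5.10e-07). Further a genes are not among the 48: Tcirg1, the a3 isoform of lysosomes and osteoclasts, was lower at 146 ± 21.5 CPM in NETs-treated cells and 295 ± 11.2 CPM in control cells (SD, n = 3 each; log2 fold change -1.01 ± 0.10, adjusted p = 7.42e-05), and Atp6v0a2, an isoform known mainly from the Golgi and endosomes, was higher at 96.3 ± 6.53 CPM in NETs-treated cells and 45.4 ± 3.24 CPM in control cells (log2 fold change 1.09 ± 0.09, adjusted p = 1.80e-05). Atp6v0a4, the isoform of kidney, was at 0 in all libraries. Summed per length, the a genes reached 58.8, 50.5 and 51.0 RPKM in NETs-treated cells, against 94.8, 98.4 and 92.7 RPKM in control cells. Within that sum Tcirg1 held 59.3% ± 3.8 in NETs-treated cells and 67.3% ± 1.0 in control cells, Atp6v0a1 held 13.8% ± 0.87 in NETs-treated cells and 25.6% ± 0.98 in control cells, and Atp6v0a2 held 26.9% ± 3.0 in NETs-treated cells and 7.07% ± 0.32 in control cells (SD, n = 3 each). The shares depend on the annotated exon lengths, and no test was made of them.

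**Figure D4:**
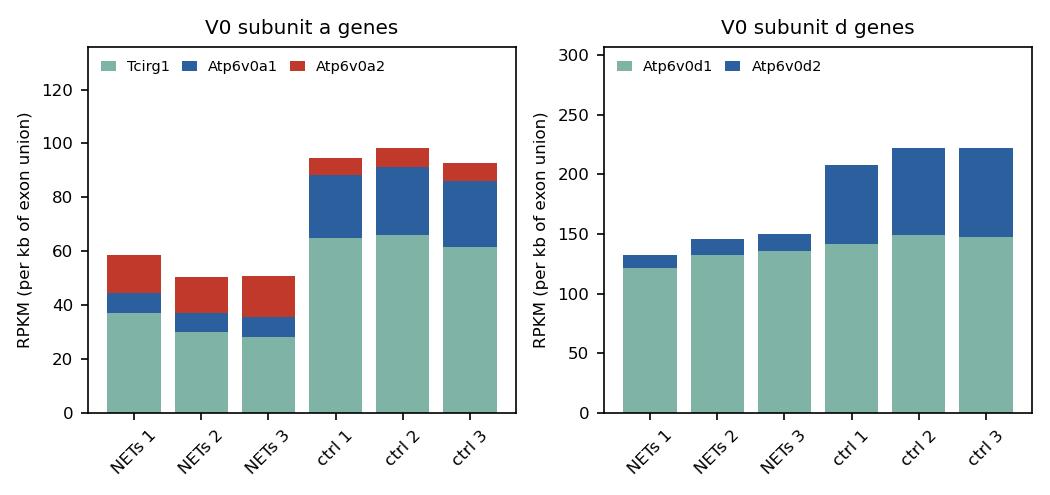
Levels of the genes for the a subunit (left panel) and the d subunit (right panel) of the V0 sector in each library, as stacked RPKM computed over the union of annotated exons (y axis), NETs-treated libraries before control libraries. The stacks are lower in NETs-treated cells, Atp6v0d2 shrinks to a thin layer there, and Atp6v0a2 is the layer that is thicker.

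The remaining V0 genes went different ways. Atp6v0e, a small subunit of the membrane sector (ENSMUSG00000015575.15, chromosome 17, 26663231 to 26699647), was at 159, 200.4 and 241 CPM in NETs-treated cells, against 111, 122 and 127 CPM in control cells. All NETs-treated libraries lay above control with a wide spread, a 1.66-fold rise and a log2 fold change of 0.74 ± 0.14 (SE, adjusted p = 0.00225). Atp6v0c, the proteolipid of the rotating ring, had 383, 369 and 354 CPM in NETs-treated cells, against 484, 486 and 473 CPM in control cells. Its groups were tight and separate, with a log2 fold change of -0.39 ± 0.06 (SE, adjusted p = 6.33e-04). Atp6v0b, the other ring proteolipid measured, overlapped between groups, and the 95% interval of its log2 fold change was -0.14 to 0.23.

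In the V1 sector 4 of 6 genes fell and 1 rose. Atp6v1b2, the B subunit of the ATP-splitting head (ENSMUSG00000006273.14, chromosome 8, 69088646 to 69113711), had 325, 335 and 337 CPM in NETs-treated cells, against 627, 691 and 686 CPM in control cells. NETs-treated values agreed closely and lay far below control, a log2 fold change of -1.01 ± 0.06 (SE, adjusted p = 4.50e-06). Atp6v1a, the catalytic A subunit, was at 515, 594 and 669.8 CPM in NETs-treated cells, against 851, 888 and 902 CPM in control cells, a log2 fold change of -0.57 ± 0.09 (SE, adjusted p = 9.79e-04). Atp6v1c1, a stator subunit that takes part in the reversible joining of V1 to V0, had 218, 247 and 279 CPM in NETs-treated cells, against 389, 411 and 420.5 CPM in control cells, with a log2 fold change of -0.71 ± 0.09 (SE, adjusted p = 2.92e-04). For both Atp6v1a and Atp6v1c1 every NETs-treated library was below every control library. Atp6v1d, the central shaft, was at 88.2, 93.2 and 85.3 CPM in NETs-treated cells, against 127, 134 and 132 CPM in control cells, a log2 fold change of -0.56 ± 0.07 (SE, adjusted p = 1.94e-04).

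Atp6v1e1, a peripheral stalk subunit, went the other way. It was at 170.3, 171 and 166 CPM in NETs-treated cells, against 119.7, 124 and 125 CPM in control cells, and the rise was 1.37-fold with a log2 fold change of 0.46 ± 0.06 (SE, adjusted p = 3.35e-04). Atp6v1h, the regulatory H subunit, overlapped between groups at 227 ± 38.8 CPM in NETs-treated cells and 206 ± 9.22 CPM in control cells (SD, n = 3 each), and its log2 fold change of 0.14 ± 0.12 became -0.16 and passed as a decrease under the GC correction chosen after seeing the data, while it passed as an increase of 0.28 without NETs-treated replicate 1. Neither accessory gene passed. Atp6ap1, the subunit Ac45, had 251, 233 and 259 CPM in NETs-treated cells, against 238, 240.1 and 246 CPM in control cells, with values that overlapped and a 95% interval of the log2 fold change of -0.11 to 0.18. Atp6ap2, the prorenin receptor, had a log2 fold change of -0.33 ± 0.13 (SE, adjusted p = 0.0575), its NETs-treated libraries all below control; it passed as lower in 7 of 16 other settings, the DESeq2 Wald test and the authors' deposited table among them.

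Summed over all 48 genes, lysosomal transcripts took 2.19%, 2.17% and 2.18% of all counts in NETs-treated libraries, against 2.96%, 2.94% and 2.94% in control libraries. On the TMM scale the sums were 22476, 22450.1 and 22285 CPM in NETs-treated and 28754, 28719.7 and 28685 CPM in control libraries, a ratio of means of 0.78. Ctsb and Ctsd alone made up 31.4% of that sum in NETs-treated and 32.3% in control cells; without them the ratio was 0.79. By role the ratio of summed CPM, NETs-treated over control, was 0.611 for glycosidases, 0.686 for V1, 0.70 for lipid genes, 0.739 for proteases, 0.77 for V0, 0.95 for accessory proteins and 1.17 for membrane proteins. The sum of membrane proteins lay above control, while 4 of its 7 genes fell and Lamp1 and Lamp2 rose. These sums are descriptions weighted towards abundant genes, and no test was made of them or of the differences between roles.

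The other genes of the lysosomal pathway, 99 of 114 with enough counts to be tested, showed 56 lower (56.6%) and 10 higher (10.1%), with a median log2 fold change of -0.35. Among all tested genes 27.2% were called lower and 25.5% higher, with a median of -0.02. Of 21 further glycosidases, sulfatases and glycan enzymes 16 fell and 0 rose. Hyal1, a hyaluronidase, had 18.5, 14.1 and 15.7 CPM in NETs-treated cells, against 118, 114 and 118 CPM in control cells, a 7.24-fold decrease (log2 fold change -2.86 ± 0.11, adjusted p = 4.60e-07); it shares exon bases with Naa80 and Hyal3 on its strand, so its count may not be separate. Ids, the sulfatase of dermatan and heparan sulfate, was at 3.50, 2.47 and 4.67 CPM in NETs-treated cells, against 14.6, 15.1 and 18.1 CPM in control cells (log2 fold change -2.16 ± 0.23, adjusted p = 9.71e-05). Both were clear of the spread. Among 5 other proteases 3 fell, and Ctsk, cathepsin K, was at 117 ± 9.79 CPM in NETs-treated cells and 351 ± 12.2 CPM in control cells (SD, n = 3 each) with a log2 fold change of -1.59 ± 0.08 (SE, adjusted p = 1.46e-06), with Ctso at -1.06 ± 0.17. Of 10 further lipid enzymes, phosphatases and nucleases 8 fell and 1 rose: Naaa, an acid amidase, and Pld4, an exonuclease of endolysosomes, fell with -1.50 ± 0.11 and -1.24 ± 0.10.

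Membrane and sorting genes outside the 48 were mixed. Of 21 other membrane proteins 10 fell and 2 rose, where 27.2% of all tested genes were called lower and 25.5% higher. Slc38a9, the arginine-sensing transporter that signals to mTORC1, rose to 63.5, 68.7 and 78.1 CPM in NETs-treated cells, against 28.7, 32.6 and 36.2 CPM in control cells (log2 fold change 1.11 ± 0.11, adjusted p = 7.34e-05), and Ostm1, the partner of the chloride exchanger CLC-7, had 0.35 ± 0.11. The channels Mcoln3 and Tmem175 fell, with log2 fold changes of -1.12 ± 0.07 and -1.09 ± 0.19. Of 12 sorting genes 6 fell and 5 rose. Igf2r, the large mannose 6-phosphate receptor, was at 19.8 ± 0.916 CPM in NETs-treated cells and 43.4 ± 4.56 CPM in control cells (SD, n = 3 each; log2 fold change -1.13 ± 0.10, adjusted p = 3.62e-05). M6pr, the other mannose 6-phosphate receptor, was higher and more abundant, at 208 ± 2.26 CPM in NETs-treated cells and 150 ± 1.25 CPM in control cells (SD). The log2 fold change of M6pr was 0.47 ± 0.06 (SE, adjusted p = 2.18e-04). The retromer gene Vps29 and the adaptor gene Gga3 also rose, with 0.65 ± 0.08 and 0.56 ± 0.07. Sort1, sortilin, was scarce, with 1, 0 and 0 counts in NETs-treated and 15, 19 and 12 counts in control libraries. Of 11 V-ATPase genes outside the 48 that were tested, 6 fell and 2 rose; besides the a isoforms, Dmxl1, an assembly factor, fell with -1.17 ± 0.12 and Ncoa7, which binds the pump, rose with 0.50 ± 0.09. Of 19 regulators 7 fell, Lamtor2 of the Ragulator complex most with -1.08 ± 0.16, and 0 rose. Exon bases are shared with a gene on the opposite strand by Slc38a9, Ostm1, Tmem175, Vps29, Gga3 and Atp6v0a2, and with Hint3 on the same strand by Ncoa7.

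Total counts ran from 39994613 to 43686531 in the NETs-treated and from 41830940 to 44274445 in the control libraries. Of the 10 macrophage markers all 10 were tested, 2 higher and 7 lower, with Cd14, an endotoxin co-receptor, the most changed upward; their summed level was 10683 to 10914 CPM in NETs-treated and 6208 to 6364 CPM in control libraries. The microglial regulator gene Sall1 was at 0 throughout; of the 10 microglial markers 6 were tested, 1 higher and 4 lower. Of 14 neutrophil markers 7 were at 0 in all 6 libraries, S100a9, Ly6g and Mpo among them, and 5 were tested, 1 higher and 3 lower. The list summed to 10.9 to 17.0 CPM in NETs-treated and 12.6 to 15.2 CPM in control libraries, but its genes moved in opposite directions. S100a8, a calcium-binding protein of myeloid cells, was higher at 11.7 ± 2.67 CPM in NETs-treated cells and 2.68 ± 0.591 CPM in control cells, and Csf3r, the receptor for G-CSF, was lower at 0.127 ± 0.142 CPM in NETs-treated cells and 6.21 ± 1.80 CPM in control cells (SD, n = 3 each). Dendritic cell markers summed to 59.7 to 60.2 CPM in NETs-treated and 152 to 160 CPM in control libraries, nearly all Itgax, with Cd209a and Clec9a at 0. Markers of T and B cells and of fibroblasts summed to at most 0.282 CPM in any library. The NETs-treated libraries varied more than the control libraries, with a median SD of log2 CPM over tested genes of 0.20 in NETs-treated and 0.12 in control libraries. The part of these cell type markers in the lysosomal results was not tested.

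Within the NETs-treated group, replicates 1 and 3 lay at opposite ends with replicate 2 between them for 34 of the 48 genes (70.8%) and for 52.0% of all tested genes. Correcting each library for the GC content of transcripts was a step chosen after seeing the data. The median SE went from 0.071 to 0.062 for the 48 genes and from 0.143 to 0.128 for all tested genes. The correction gave 37 lower and 8 higher among the 48 genes, with Cd63, Npc2 and Atp6v0b newly higher at log2 fold changes of 0.22, 0.14 and 0.18. Under it the log2 fold change of Lamp2 was 0.67. Exons of 14 of the 48 genes overlap those of another annotated gene, 12 of them one on the opposite strand, and the sources used here do not state whether counting used strand. Among the overlapping partners Cap1 was the only one more abundant than its lysosomal gene, Ppt1, at 681 CPM in NETs-treated and 626 CPM in control cells.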

How the data were processed

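RNA-seq libraries of 3 NETs-treated and 3 control samples, strand-specific per the labels' protocols, were analysed from 1 deposited table. HISAT2, DESeq2 and the builds mm10 and rn6 are named in the submitters' processing notes, without roles; the gene IDs are mouse, and the sources used here state no counting program or annotation. The table holds raw read counts per gene, per the file headers, which were used for all tests. It also holds the authors' normalised counts, a signal in which each deposited count was scaled by 1 size factor for its library, and the authors' own comparison (log2 fold change, p-value, adjusted p), used only as an alternative. Library pairs within a group differed by more than sampling noise (chi-square per gene 9.89 to 78.3), so each counted as 1 sample.

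The main test was the two-sided quasi-likelihood test of edgeR 4.0.16 (R 4.3.3) with TMM scaling, filterByExpr (minimum count 10, minimum total 15) and no covariates. Benjamini-Hochberg adjustment was over 15272 genes. The fit was run on simulated data in which few genes changed and all had the same extra spread beyond counting error. In the real data 52.7% of tested genes were called, so that simulation does not check the scaling under such wide change. SEs came from the fold change and its F statistic. CPM and RPKM were computed here, RPKM over the union of exons in GENCODE M21 (GRCm38), where 46 of the 48 IDs matched with their version. Limits set by counts cover counting error only.

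Members, lists and the rule for named genes (per role, up to 4 largest called changes, up to 2 against the majority and the most abundant gene; per other list, up to 2 called in each direction; Mitf and Tfec) were chosen with earlier results of these data known. The marker genes, Cap1, M6pr, and members given without library values are outside that rule. Replicate numbers of the titles were not treated as pairs in the main test. The deviations of same-numbered libraries correlated at 0.124, 0.0271 and 0.0671, yet every library correlated best with its own number. Alternatives were other scalings (library size, upper quartile, DESeq2 size factors), the DESeq2 Wald test, limma-voom, other filters, the replicate block, leaving out each library, the authors' table and, chosen after seeing the data, a GC correction. A planned comparison of protein sequences was not made. Values of some genes on the lists are not reported here.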

Additional observations from a re-analysis of the deposited data

How the results depend on the processing

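Of the 37 lysosomal genes called, 32 were called in the same direction under all 16 alternatives; Lamp1, Tfe3, Cd68, Scarb2 and Npc1 lost their call in 1 or more. Lower calls among the 48 genes ran from 30 to 37 over all alternatives. Higher calls, 5 in the main test, were 3 with library-size scaling and 8 with GC correction (chosen after seeing the data), and 3 to 6 leaving out each library. With library-size scaling the higher calls were 1 among membrane proteins and 0 among transcription factors, where they were also 0 without a filter; GC correction gave 1 among lipid genes and 2 in V0. Lower calls among accessory proteins, 0 in the main test, were 1 (Atp6ap2) with library-size scaling, the DESeq2 Wald test, limma-voom, the replicate block, GC correction and the authors' table. Leaving out each library gave 2 to 4 lower and 1 to 2 higher membrane genes, 0 to 1 higher lipid genes, 0 to 1 higher transcription factors, 1 to 2 higher V1 genes and 0 to 1 lower accessory genes. The median log2 fold change became -0.49 with library-size scaling (membrane -0.29, proteases -0.50, glycosidases -0.79, V0 -0.35) and -0.37 with GC correction (membrane -0.26, V0 -0.20, V1 -0.68), and V0 was at -0.25 with a CPM filter; leaving out each library gave -0.74 to -0.66 for glycosidases and -0.29 to -0.25 for V0. For other lysosomal genes it was -0.33 with DESeq2 size factors, -0.42 with library-size, -0.36 with upper-quartile scaling, -0.34 with limma-voom, -0.35 without a filter, -0.32 with the CPM filter, -0.41 with GC correction and -0.36 to -0.33 leaving out each library. Atp6v1h turned to -0.16 with GC correction. The replicate block gave 35 lower and 5 higher members, and every library correlated best with its own number, a hint from the data and not the design. The causes of these shifts were not tested. With 3 libraries per group, log2 differences among the 11 genes not called are bounded only by intervals from -0.87 to 0.40.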
